A study of Mus musculus with 10 samples.

Results

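Gapmers are antisense oligonucleotides whose action depends on host proteins, and 10 genes for such proteins were followed here in mouse microglia treated with gapmers. The genes were chosen by name for their roles and not for any measured value, although earlier results of these data were known at the time. They encode RNase H1 (Rnaseh1), the subunits of RNase H2 (Rnaseh2a, Rnaseh2b, Rnaseh2c), the paraspeckle proteins Nono and Pspc1, the nucleolar protein Npm1, the exonucleases Xrn1 and Xrn2, and the scavenger receptor stabilin-1 (Stab1). All 10 were found by symbol among the 55471 genes of the count tables, and all 10 passed the filter on low counts. The cells were primary microglia, the macrophages of the brain parenchyma, of WT genotype, kept in DMEM with serum and antibiotics. In 5 libraries (3222401L13Rik knockdown, replicates 1 to 5) they had received gapmers against the long noncoding RNA 3222401L13Rik, and in 5 libraries (Control, replicates 1 to 5) control gapmers. Both groups therefore carried a gapmer, and untreated cells are not analysed here, so no value below measures the effect of gapmer treatment as such. The labels do not give the gapmer sequence, dose or time, the age of the mice, or whether replicates came from separate cultures, so p-values below describe the scatter among these samples alone, and that scatter may be technical.

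A gapmer carries a central stretch of DNA between modified ends, and the hybrid it forms with a target RNA is a substrate of RNase H1, which cuts the RNA strand. The fragments are then removed by exonucleases, among them XRN2 in the nucleus and XRN1 in the cytoplasm. Oligonucleotides with a phosphorothioate backbone also bind proteins without regard to their target, including the paraspeckle proteins NONO and PSPC1 and the nucleolar chaperone NPM1, and stabilins on the cell surface take them up in liver sinusoidal endothelium. RNase H2, a complex of a catalytic and a pair of accessory subunits, removes ribonucleotides from DNA and resolves RNA:DNA hybrids during replication.

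Totals were 5593627 to 6636082 reads in the knockdown-labelled libraries and 4321316 to 5639040 reads in the control libraries. 3222401L13Rik itself did not separate the labels, with 22, 38, 24, 33 and 29 reads in knockdown-labelled replicates 1 to 5 and 30, 29, 28, 33 and 34 reads in control replicates 1 to 5 (log2 fold change -0.17, SE 0.23, edgeR quasi-likelihood test, adjusted p = 0.541). Directions are therefore given for the libraries labelled knockdown. Markers fixed for microglia summed to 2800 to 3262 CPM (counts per 1000000 reads, scaled by the trimmed mean of M values, TMM) in the knockdown-labelled and 2333 to 2743 CPM in the control libraries, and none of the 10 was at 0. Csf1r led them, while Tmem119, a marker of microglia in the intact brain, averaged 2.72 CPM and 2.84 CPM in the same groups. Reads on olfactory receptor genes, which are not known as microglial genes, came to 0.259 ± 0.0676 CPM per kilobase of exon (without TMM scaling) in the knockdown-labelled and 0.603 ± 0.148 in the control libraries (SD, n = 5 each, over 1093 genes; p = 0.00794 by a two-sided exact permutation test, the lowest that 252 splits allow). This density, multiplied by a gene's exon length, gives the reads it predicts for that gene, and the percentage of a gene's reads so predicted is called its background share. The background share of 3222401L13Rik was 34.1% in the knockdown-labelled and 61.7% in the control libraries, so a large part of its few reads was at the background level, in unequal shares.

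With TMM scaling, 7 of the 10 genes were called higher in the knockdown-labelled libraries (Nono, Xrn2, Stab1, Rnaseh2c, Xrn1, Npm1 and Pspc1), by 0.17 to 0.39 on the log2 scale, and none was called lower. None of the 10 genes was called higher with scaling by library totals. The same held with scaling fitted to genes whose background share was under 5% (called low-background scaling here). Of all 19263 tested genes, 759 and 319 were called higher in these fits. In both of these fits Nono, Xrn2, Stab1 and Rnaseh2c kept positive fold changes short of the threshold. Xrn1, Npm1 and Pspc1 turned negative with low-background scaling. Of all 19263 tested genes, 54.3% were called in either direction, with 22.9% of tested genes higher and 31.3% lower (edgeR's quasi-likelihood test with a threshold of 0.05 on the p adjusted by Benjamini and Hochberg). The median log2 fold change was 0.23 over the 10 genes and -0.10 over all tested genes. Every knockdown-labelled library lay above every control library for 3 of the 10 genes (Nono, Xrn2 and Stab1), against 12.6% of all tested genes. In bulk RNA a change in the mix of cells and a change in RNA per cell cannot be told apart.

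The calls of the 10 genes stood in the order of their background share. A gene's share falls as its reads per kilobase rise, so this was also their order of level, from high to low. Rnaseh1, Rnaseh2a and Rnaseh2b, which were not called, had the fewest reads and the widest intervals as well as the highest shares. These traits were not separated here. The 6 genes under 5% (Stab1, Xrn2, Nono, Npm1, Rnaseh2c and Pspc1, 0.365 to 3.58%) were all called higher, and of all tested genes 87.4% of those under 1% and 73% of those at 1 to 5% were called higher too. Of the 4 genes at 5 to 20% (Xrn1, Rnaseh1, Rnaseh2a and Rnaseh2b, 6.98 to 16.7%) Xrn1 alone was called, as higher. In that class 15.4% of all tested genes were called higher and 6.39% lower. Set against tested genes of similar share in bins of 962 or 963 genes, 6 of the 10 fold changes lay within the middle 50% of their bin. The other 4, Rnaseh2c, Nono, Xrn1 and Rnaseh1, lay above it. Nono was at 0.31 with an upper quartile of 0.31 in its bin, Xrn1 and Rnaseh1 were both at 0.22 with an upper quartile of 0.22, and Rnaseh2c was at 0.39 with a bin median of 0.22 and an upper quartile of 0.28.

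**Figure D1:**
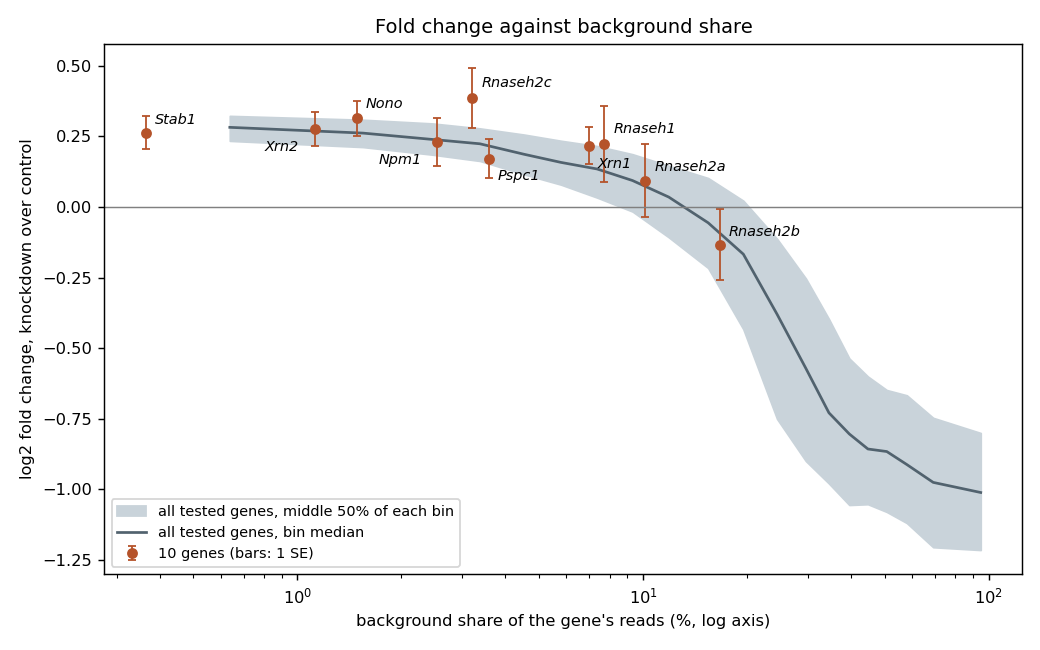
Log2 fold change of knockdown-labelled over control libraries with TMM scaling (vertical axis) against background share in percent (log axis), for the 10 genes (points, bars 1 SE) and for all tested genes in 20 bins (line, bin median; band, middle 50%). The 10 points run along the line, with Rnaseh2b (16.7% share) at the low end at -0.13 and Rnaseh2c (3.21% share) farthest above the line.

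The calls changed with the scaling. With upper-quartile scaling 3 genes stayed higher (Nono, Xrn2 and Stab1), and the medians were 0.08 over the 10 genes and -0.24 over all tested genes. With library totals alone the medians were 0.022 and -0.30, and with low-background scaling they were -0.017 and -0.34. In both of those fits 0 of the 10 genes were called higher and Rnaseh2b was called lower (-0.34 and -0.38). Of all 19263 tested genes, 7888 were called lower and 759 higher with library totals. With low-background scaling 8586 of them were called lower and 319 higher. Counts of related genes with low-background scaling, given below, stand beside those last numbers. Low-background scaling centres the genes under a 5% background share near 0 as a set. Of the 10 genes, 6 belong to that set, so a median near 0 and lost calls were largely built into this fit. A call kept or lost in it, here and below, is relative to those low-share genes. Within sequencing lanes, lane 7 alone (3 against 3 libraries) gave 7 of the 10 genes called higher, with a median of 0.30 over the 10 genes. Of all 19984 genes tested there, 4135 were called higher. In lane 8 alone (2 against 2) 0 of the 10 genes were called higher, with a median of 0.19 over them and 220 calls among all genes.

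**Figure D2:**
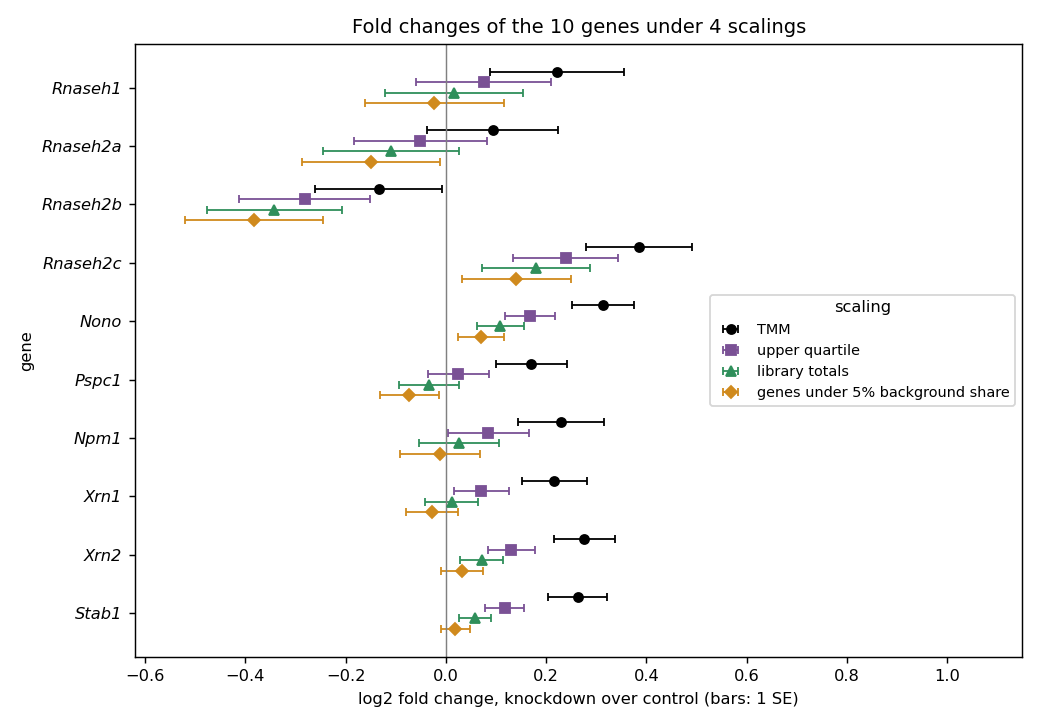
Log2 fold change of knockdown-labelled over control libraries (horizontal axis, bars 1 SE) for each of the 10 genes (rows) under 4 scalings. All genes shift together to the left, so that Nono is at 0.31 with TMM and 0.069 with low-background scaling (genes under a 5% background share), and Rnaseh2b at -0.13 and -0.38.

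The 10 genes spanned a 45.2-fold range of level per kilobase of exon, averaged over all 10 libraries. Exon length was that of the merged exons of all annotated transcripts of a gene, from 1715 bases for Rnaseh2c to 18585 bases for Xrn1. Which transcripts these cells use was not tested, and the order, the ratios per kilobase and the background shares depend on this length. Stab1 was the highest at 113 CPM per kilobase, above 98.7% of tested genes, followed by Xrn2 (36.9), Nono (27.9), Npm1 (16.4), Rnaseh2c (12.9), Pspc1 (11.6), Xrn1 (5.95), Rnaseh1 (5.36), Rnaseh2a (4.10) and Rnaseh2b (2.51), which lay above 51.0% of tested genes. Stab1 stood clear of Xrn2, Nono clear of Npm1 and Pspc1 clear of Xrn1, with no overlap of their libraries. Xrn1 exceeded Rnaseh1 in 5 of 10 libraries, so these neighbours did not differ beyond their spread. Npm1 exceeded Rnaseh2c in 9 and Rnaseh2c exceeded Pspc1 in 8 of 10 libraries, and every other neighbour held its place in all 10.

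**Figure D3:**
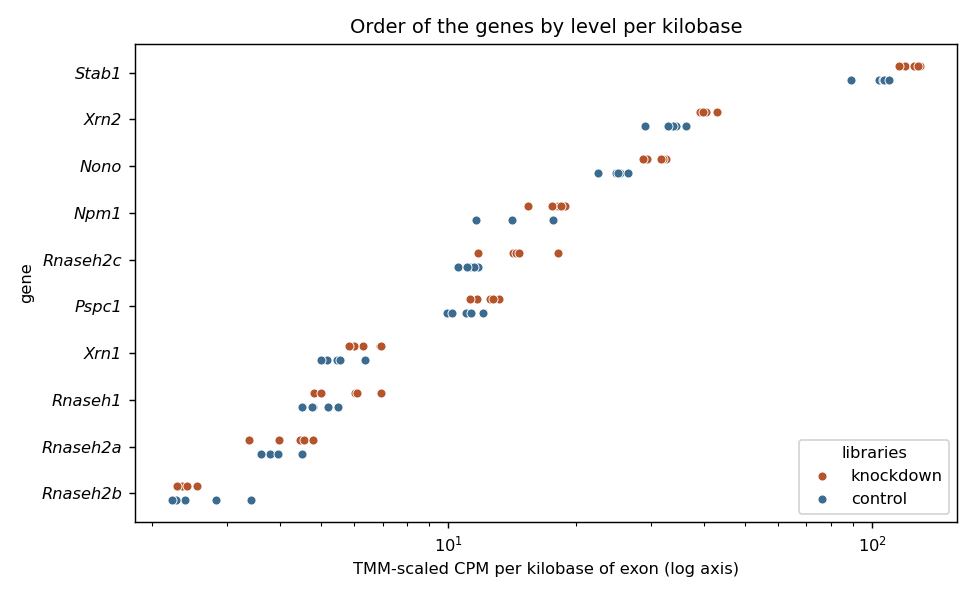
TMM-scaled CPM per kilobase of exon (log axis) of the 10 genes in the 5 knockdown-labelled and 5 control libraries, 1 point per library, ordered by mean. Stab1 lies highest, near 113, and the RNase H genes other than Rnaseh2c fill the low end, from 2.51 to 5.36.

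Rnaseh1 (ENSMUSG00000020630, GRCm38 chromosome 12, 28649602 to 28659589, plus strand), the enzyme on which gapmers depend, was present in every library at 56 to 104 reads. It was at 12.5, 17.9, 15.5, 15.7 and 12.9 CPM in knockdown-labelled replicates 1 to 5 and at 12.4, 11.6, 13.4, 14.2 and 12.3 CPM in control replicates 1 to 5. The groups overlapped, with knockdown-labelled replicates 2, 3 and 4 above every control library and replicates 1 and 5 among them. The log2 fold change came to 0.22 (SE 0.13, adjusted p = 0.151 in edgeR's quasi-likelihood test) with 95% limits of -0.04 and 0.49, so a rise of up to 1.40-fold or a fall to 0.970 of the control level lay within the interval. With no filter on low counts Rnaseh1 was called higher (0.35), while its value was 0.016 with library totals and -0.023 with low-background scaling. None of its 50-base stretches occurs in a transcript of another gene in GENCODE M21.

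Of the RNase H2 subunit genes, Rnaseh2c was called higher with TMM scaling, and Rnaseh2a and Rnaseh2b were not called. Rnaseh2a (ENSMUSG00000052926, chromosome 8, 84956610 to 84969767, minus strand), the catalytic subunit, was at 15.7, 11.9, 16.03, 16.8 and 14.0 CPM in the knockdown-labelled and at 13.8, 13.3, 12.7, 15.9 and 13.9 CPM in the control libraries. The groups overlapped, and knockdown-labelled replicate 2 was the lowest of all 10 libraries (log2 fold change 0.09, SE 0.13, adjusted p = 0.556 by edgeR). It shares 9.66% of its exon bases with Gm49661, which had 0 reads, and 5.04% with Prdx2 on the opposite strand. The fold change turned to -0.051 with upper-quartile scaling, -0.11 with library totals, -0.024 with a stricter filter and -0.15 with low-background scaling.

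Rnaseh2b (ENSMUSG00000021932, chromosome 14, 62292589 to 62372992, plus strand), an accessory subunit that binds the replication clamp PCNA, was at 15.9, 14.6, 14.7, 15.04 and 14.3 CPM in the knockdown-labelled libraries. In the control libraries it was at 14.9, 21.4, 17.7, 14.2 and 13.9 CPM. Control replicates 2 and 3 lay above the rest, and the other libraries were within 2 CPM of each other. The background share of Rnaseh2b was 11.6% in the knockdown-labelled and 21.6% in the control libraries, and control replicate 2 also had the highest olfactory receptor density of all (0.821 CPM per kilobase, unscaled). The log2 fold change came to -0.13 (SE 0.13, adjusted p = 0.372 in edgeR's quasi-likelihood test) with 95% limits of -0.39 and 0.12, and lane 8 alone gave 0.082.

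Rnaseh2c (ENSMUSG00000024925, chromosome 19, 5601873 to 5607019, plus strand), the other accessory subunit, had the largest fold change of the 10. It was at 24.4, 24.8, 31.1, 25.1 and 20.1 CPM in the knockdown-labelled and at 19.3, 20.2, 19.7, 18.1 and 18.9 CPM in the control libraries. Control replicates lay close together, and 4 of 5 knockdown-labelled libraries were above all of them, with replicate 5 just below the highest control. The rise was 0.39 on the log2 scale (SE 0.11, 95% limits 0.18 and 0.60, adjusted p = 0.0019 by edgeR), or 0.31 to 0.49 with each library left out in turn, and it fell short of the threshold with upper-quartile scaling (0.24), library totals (0.18) and low-background scaling (0.14).

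The 3' part of Rnaseh2c overlaps Kat5, a lysine acetyltransferase gene on the opposite strand, over 426 exon bases or 24.8% of its exons, and the sources used here do not say how the counting treated strand. Kat5 was at 30.7 CPM in the knockdown-labelled and 27.9 CPM in the control libraries (log2 fold change 0.13, SE 0.09, edgeR adjusted p = 0.217). Reads on the shared bases could belong to either gene.

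Within a library, Rnaseh2c was read 6.07 times as densely as Rnaseh2b per kilobase in the knockdown-labelled libraries and 4.32 times in the control libraries. The merged exon lengths, 1715 bases for Rnaseh2c and 6243 bases for Rnaseh2b, enter these ratios. On the log2 scale these ratios were 2.60 ± 0.22 and 2.11 ± 0.21 (SD, n = 5 each), with 2.35 to 2.94 in the knockdown-labelled and 1.78 to 2.31 in the control libraries, so the groups did not overlap. A ratio within a library does not depend on the scaling between libraries, but the background share of Rnaseh2b and the Kat5 overlap of Rnaseh2c enter it. With TMM, tested genes of similar background share had a median log2 fold change of 0.22 for Rnaseh2c and -0.06 for Rnaseh2b. How often other pairs of genes separate the groups was not tested. The ratios of Rnaseh1 to Rnaseh2b (1.26 ± 0.24 in the knockdown-labelled and 0.93 ± 0.33 in the control libraries) and of Rnaseh2a to Rnaseh2b (0.82 ± 0.18 and 0.61 ± 0.35 in the same groups) overlapped between the groups.

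**Figure D4:**
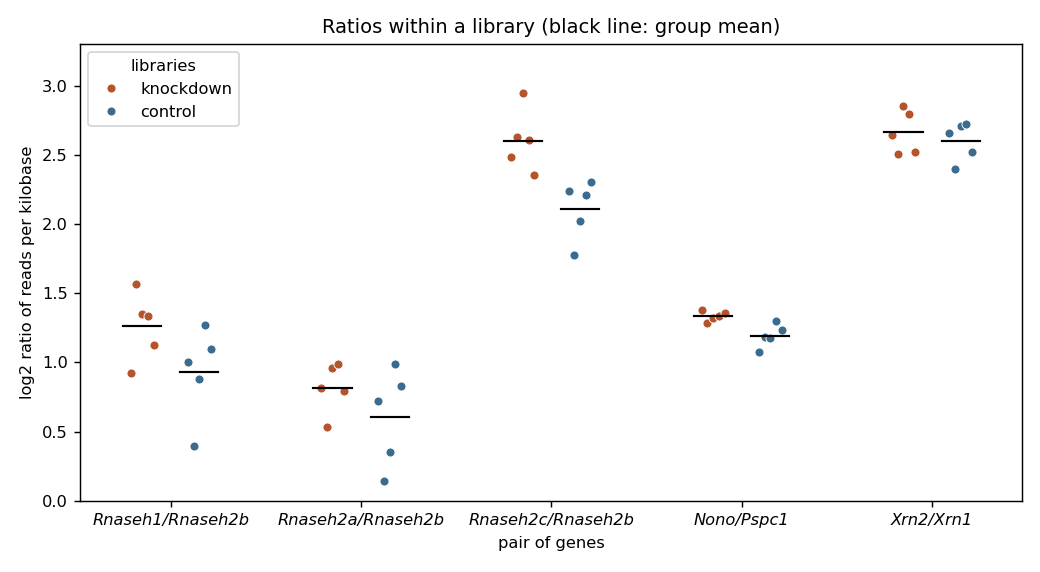
Log2 ratio of reads per kilobase of exon between 5 pairs of the genes (horizontal axis), 1 point per library, knockdown-labelled left of control, black lines at group means. Of these 5 pairs only Rnaseh2c/Rnaseh2b separates the groups without overlap (means 2.60 and 2.11). The separation is narrow, with the lowest knockdown-labelled library at 2.35 and the highest control library at 2.31.

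Nono and Pspc1 encode partner proteins of the DBHS family (Drosophila behaviour and human splicing), which build paraspeckles on the long noncoding RNA Neat1. Nono (ENSMUSG00000031311, chromosome X, 101429318 to 101448591, plus strand) was at 143, 141, 139, 129 and 126 CPM in the knockdown-labelled and at 111, 98.5, 109, 110 and 116 CPM in the control libraries. All knockdown-labelled libraries lay above all control libraries (log2 fold change 0.31, SE 0.06, edgeR quasi-likelihood test, adjusted p = 4.4e-05, and 0.29 to 0.37 with each library left out). The call held under upper-quartile scaling (0.17) and was lost with library totals (0.11) and with low-background scaling (0.069). Nono shares 14.98% of its 50-base stretches with 2 processed pseudogenes, which together held 30 to 52 reads per library against 474 to 825 for Nono.

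Pspc1 (ENSMUSG00000021938, chromosome 14, 56720710 to 56778316, minus strand) was at 72.0, 75.6, 73.1, 66.9 and 64.4 CPM in the knockdown-labelled and at 69.0, 56.9, 63.1, 58.4 and 64.8 CPM in the control libraries. Knockdown-labelled replicates 1 to 3 were above every control library, and replicates 4 and 5, both of lane 8, were not. The rise of 0.17 (SE 0.07, edgeR adjusted p = 0.0337) missed the threshold without control replicate 2 (0.15) or 4 (0.15) and without knockdown-labelled replicate 2 (0.17) or 3 (0.18), and it turned to -0.034 with library totals and -0.073 with low-background scaling. Per kilobase and within a library, Nono was read 2.52 times as densely as Pspc1 in the knockdown-labelled and 2.29 times in the control libraries (log2 ratio 1.33 ± 0.035 and 1.19 ± 0.082, SD, n = 5 each, with overlap).

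Of 15 other paraspeckle genes tested, 10 were higher and 0 lower with TMM scaling (median 0.22), against 1 higher and 2 lower with low-background scaling (median -0.02). All 10 rises were among the 11 genes under a 5% background share, a range in which 73% (at 1 to 5%) and 87.4% (under 1%) of all tested genes were called higher. Sfpq, the DBHS partner that is essential for paraspeckles, was at 0.33 (SE 0.06) and still at 0.09 in the second of these fits, where it kept its call. Matr3, Hnrnpk and Cpsf6, which encode RNA-binding proteins, were at 0.34, 0.28 and 0.29 with TMM and lost their calls in that fit. The architectural RNA Neat1 was at 0.14 (SE 0.06) with TMM, -0.0031 with upper-quartile scaling, -0.06 with library totals and -0.10 with low-background scaling. It was called lower in that last fit, as were 8586 of all 19263 tested genes.

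Npm1 (ENSMUSG00000057113, chromosome 11, 33152287 to 33163206, minus strand) encodes nucleophosmin, a chaperone of ribosome assembly that phosphorothioate oligonucleotides can bind. It has many processed copies in the genome, and 24.3% of its 50-base stretches occur in transcripts of 11 other genes, 10 of them pseudogenes. The following stretch, bases 586 to 635 of its 1633-base coding transcript (GENCODE M21), is shown because it occurs in full in 5 other genes and so cannot be assigned to Npm1 by sequence. It lies at chr11:33160385-33160434 on the minus strand of GRCm38, and no base is set apart by capitals because the whole stretch is shared.
Npm1 stretch: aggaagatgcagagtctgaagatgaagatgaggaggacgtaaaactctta

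The 5 genes that hold it are Zfp605, with 61.6 reads on average, and the pseudogenes Gm6477 (35.2), Gm15484 (2.40), Gm17060 (1.80) and Gm9118 (0.30). Reads from such stretches may have been dropped, shared or misplaced, depending on how the authors counted reads that fit several places, so the level of Npm1 is uncertain. As counted, Npm1 was at 48.4, 41.0, 50.3, 46.9 and 49.2 CPM in the knockdown-labelled and at 47.2, 31.0, 37.7, 37.6 and 47.0 CPM in the control libraries. Control replicates 1 and 5 lay among the knockdown-labelled libraries, and control replicate 2 was the lowest of all. The rise of 0.23 (SE 0.09, adjusted p = 0.0209 by edgeR) missed the threshold without control replicate 2 (0.16) and became -0.012 with low-background scaling.

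Of 11 other nucleolar genes tested, 7 were higher and 0 lower (median 0.19), against 1 higher and 3 lower with low-background scaling (median -0.05). Of the 6 under a 5% background share, 5 were higher, beside the 73% and 87.4% of all tested genes given above for that range. Ncl, encoding nucleolin, was at 0.35 (SE 0.06, edgeR adjusted p = 4.0e-06) and kept its call in that fit at 0.11. The nucleolar GTPase gene Gnl3 (0.35), the rRNA methyltransferase gene Nop2 (0.37) and Ubtf (0.25), a factor of RNA polymerase I transcription, lost theirs.

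Xrn2 (ENSMUSG00000027433, chromosome 2, 147012996 to 147078000, plus strand), the nuclear exonuclease that degrades RNA from the 5' end, was at 156, 156, 172, 162 and 158 CPM in the knockdown-labelled and at 137, 116, 135, 131 and 145 CPM in the control libraries. The groups did not overlap, and control replicate 2 was again the lowest. The log2 fold change was 0.28 (SE 0.06, adjusted p = 1.9e-04 by edgeR), or 0.24 to 0.33 with each library left out. The call held under upper-quartile scaling (0.13) and was lost with library totals (0.071) and low-background scaling (0.032).

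Xrn1 (ENSMUSG00000032410, chromosome 9, 95954760 to 96057803, plus strand), its cytoplasmic counterpart, was at 117, 128, 111, 108 and 129 CPM in the knockdown-labelled and at 101, 103, 96.2, 92.7 and 118 CPM in the control libraries. Control replicate 5 lay among the knockdown-labelled libraries and the other control libraries lay below all of them. The rise was 0.22 (SE 0.07, adjusted p = 0.0045 by edgeR), and it was 0.070 with upper-quartile scaling, 0.012 with library totals and -0.028 with low-background scaling. Within a library and per kilobase, Xrn2 was read 6.33 times as densely as Xrn1 in the knockdown-labelled and 6.07 times in the control libraries (log2 ratio 2.66 ± 0.16 and 2.60 ± 0.14, SD, n = 5 each), and the groups overlapped. The merged exon lengths, 3981 bases for Xrn2 and 18585 bases for Xrn1, enter these ratios. Without length the genes were closer, at means of 161 and 119 CPM in the knockdown-labelled libraries.

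Of 13 tested genes of decapping and decay from the 5' end, 5 were higher and 0 lower with TMM scaling (median 0.15), and 0 higher and 1 lower with low-background scaling (median -0.09). The helicase gene Ddx6 (0.33, SE 0.06), the decapping enzyme gene Dcp2 (0.27), the nonsense-mediated decay helicase gene Upf1 (0.26) and the decapping scaffold gene Patl1 (0.25) had the smallest p-values. The 5 rises were the 5 genes of the list under a 5% background share. All were at 1 to 5%, where 73% of all tested genes were called higher. Of 17 genes of the exosome and its cofactors, which degrade RNA from the 3' end, 8 were higher and 0 lower (median 0.17), and 0 higher and 3 lower in the other fit (median -0.08). Exosc3 (0.50, SE 0.15), Exosc10 (0.26), Rbm7 (0.24, or -0.0056 in the other fit) and Skiv2l (0.20, or -0.01 with library totals and -0.05 in the other fit) had the smallest p-values of that list, and the catalytic subunit gene Dis3 was at 0.21 (SE 0.08, or -0.04 in the other fit). Of the 7 exosome genes under a 5% share 5 were higher with TMM, near the 73% of all tested genes at 1 to 5%. The other exosome rises were at 5 to 20%, where 15.4% of all tested genes were higher.

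Stab1 (ENSMUSG00000042286, chromosome 14, 31139013 to 31168641, minus strand) encodes stabilin-1, a scavenger receptor of macrophages and sinusoidal endothelium. The title of the series names PU.1, a myeloid transcription factor whose sites are built on GAGGAA, and Stab1 is the myeloid receptor gene of the 10, so the 250 bases before its RefSeq start (chr14:31168642-31168891, minus strand, GRCm38.p6) are shown with that motif in capitals.
Stab1 promoter: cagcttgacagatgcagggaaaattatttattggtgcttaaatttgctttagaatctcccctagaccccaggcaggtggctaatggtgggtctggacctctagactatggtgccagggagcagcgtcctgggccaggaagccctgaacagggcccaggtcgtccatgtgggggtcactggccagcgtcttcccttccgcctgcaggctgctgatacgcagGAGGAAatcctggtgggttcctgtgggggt

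The match begins at position -30, counted with the base before the start as -1. Searched on both strands, GAGGAA occurs in 23.3% of 32851 RefSeq promoter windows of that length, and in 3 of the 7 genes of this group that the promoter table holds (Stab1, Rnaseh2a and Rnaseh2c). A match of letters is a description and shows no binding.

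Stab1 was counted at 4407 to 7911 reads per library. It was at 1228, 1292, 1335, 1194 and 1319 CPM in the knockdown-labelled and at 1068, 916, 1093, 1097 and 1131 CPM in the control libraries. The groups did not overlap, and control replicate 2 was the lowest. The rise was 0.26 on the log2 scale (SE 0.06, 95% limits 0.15 and 0.38, adjusted p = 2.2e-04 by edgeR). Its call held when any 1 library was left out (0.22 to 0.31) and under upper-quartile scaling (0.12). It was 0.058 with library totals and 0.018 with low-background scaling, and with background reads also subtracted it was -0.0084, none of them past the threshold.

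Stabilin-1 is also found on macrophages of the brain borders and on endothelium, so their markers are given beside it. The 6 border macrophage markers summed to 705 to 818 CPM in the knockdown-labelled and 568 to 684 CPM in the control libraries, none at 0, with nearly all of it from Mrc1 (739 and 596 CPM on average), while Lyve1 averaged 0.782 and 1.72 CPM and Cd163 4.06 and 7.35 CPM in the same groups. The 6 endothelial markers summed to 148 to 161 CPM in the knockdown-labelled and 151 to 171 CPM in the control libraries, mostly Flt1, with Cldn5 at 0.417 and 0.524 CPM on average in the same groups. The 4 markers of sinusoidal endothelium summed to 19.0 to 27.4 CPM in the knockdown-labelled and 29.5 to 33.7 CPM in the control libraries, none at 0. Stab2, with a background share of 20.4%, led them, and Lyve1 had 2 to 14 reads per library. Here and above, a marker not at 0 had reads in the sum of all libraries. Olfactory receptor genes had reads too, so this alone does not show that a marker was expressed. The part of these cell types in the Stab1 level was not tested.

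**Figure D5:**
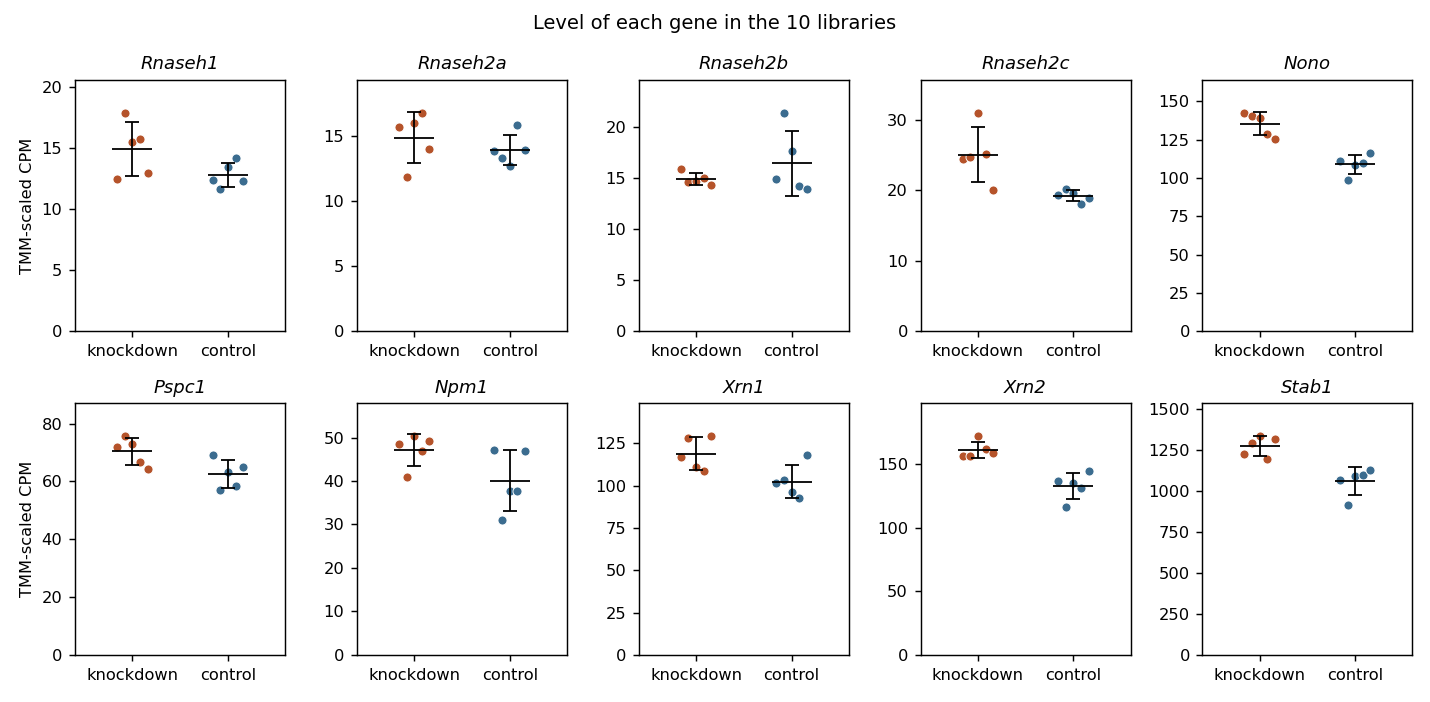
TMM-scaled CPM of each of the 10 genes in the 5 knockdown-labelled (left) and 5 control libraries (right), 1 point per library, with the group mean and SD; the vertical axes start at 0 and differ between panels. Only Nono, Xrn2 and Stab1 have all knockdown-labelled libraries above all control libraries, as scaled with TMM.

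Of 16 other tested genes for receptors that can take up oligonucleotides, 8 were higher and 5 lower with TMM scaling (median 0.13), and 3 higher and 5 lower with low-background scaling (median -0.11). The scavenger receptor genes Colec12 (0.39, SE 0.06), Msr1 (0.39, SE 0.06) and Cd36 (0.36, SE 0.06) were the 3 that kept their calls in that fit, at 0.15, 0.15 and 0.12, and the transferrin receptor gene Tfrc (0.34) lost its call there at 0.10. With TMM, 7 of the 8 receptor genes under a 5% background share were higher, near the 73% (at 1 to 5%) and 87.4% (under 1%) of all tested genes. The fallen genes were Sidt1 (-1.14), Ager (-0.95), Egfr (-0.83), Scarf1 (-0.59) and Stab2 (-0.38), and their background shares were 20.4 to 53.7%. Of all tested genes, 48.8% of those at a share of 20 to 40% and 72.7% of those at 40% or more were called lower, with medians of -0.57 and -0.91, so falls at such shares were common among all genes. Stab2, the paralogue of Stab1 and the other stabilin that takes up oligonucleotides in liver, stood at 15.6 CPM in the knockdown-labelled and 20.3 CPM in the control libraries.

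Genes of endosomal traffic and of the sensing of oligonucleotides were higher in 11 of 14 cases and lower in none (median 0.25), and in 0 and 2 cases with low-background scaling (median 0.0085). Of the 13 genes under a 5% background share 10 were higher, near the 73% (at 1 to 5%) and 87.4% (under 1%) of all tested genes. Gcc2, a golgin of retrograde transport, was at 0.31, the small GTPase genes Rab5c and Rab7 at 0.30 and 0.28, and Unc93b1, the chaperone of endosomal Toll-like receptors, at 0.27. The DNA-sensing receptor gene Tlr9 was at 0.16 (SE 0.08, edgeR adjusted p = 0.0713).

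Of 9 tested genes that handle RNA:DNA hybrids, 7 were higher and 0 lower (median 0.28), and 2 higher and 1 lower with low-background scaling (median 0.03). The 6 genes under a 5% background share were all higher with TMM, where 73% (at 1 to 5%) and 87.4% (under 1%) of all tested genes were. The 2 that were higher in both fits were the dNTPase gene Samhd1 and the RNA helicase gene Ddx5, both at 0.34 (SE 0.06) with TMM and at 0.09 in the other fit. The helicase gene Ddx21 was at 0.29 with TMM. Of 16 other genes for proteins known to bind oligonucleotides, 9 were higher and 0 lower (median 0.22), and 0 and 3 in the other fit (median -0.03), with the La protein gene Ssb (0.32), Ybx1 (0.32) and the chaperonin genes Cct2 (0.31) and Tcp1 (0.30) first by p-value. The 8 of these under a 5% background share were all higher.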

How the data were processed

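Total RNA libraries had been made with a SMARTer stranded pico-input kit, per the labels' protocols. The authors deposited whole-number read counts per Ensembl gene, 1 table per library. The submitters' processing notes name bcl2fastq and the mouse build GRCm38 (mm10). Not given in the sources used here: the aligner, what counted the reads, whether strand was used, and what was done with reads that fit several places. Of 55471 genes, 55230 matched GENCODE M21, which gave symbols, positions and exon lengths, and 92 spike-in entries (0 to 2 reads per library) were left out. Groups came from the labels, lanes (7 for replicates 1 to 3, 8 for 4 and 5) from the lane number recorded with each table. No pair of libraries within a group looked like a duplicate (chi-square over degrees of freedom 1.76 to 4.48).

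A low-count filter (filterByExpr) was applied, and genes were scaled with TMM and tested across all 19263 genes with edgeR 4.0.16 (R 4.3.3, robust quasi-likelihood fit, group as the only term), with a check on simulated counts. Alternatives were DESeq2 1.42.0, other scalings and filters, lane, replicate block, each library left out, an adjusted p of 0.01, and olfactory receptor background (4712 genes under a 5% share, subtraction with rounding to whole reads). The 10 genes and all lists were chosen with earlier results of these data known. The text names the 10 genes, up to 4 genes of each related list with the smallest p, and Sfpq, Neat1, Ncl, Stab2, Msr1 and Dis3. A further gene that this rule names is not reported here. The fallen receptors, Tlr9, Kat5 and the Npm1 copies were named after their values were seen, as was the choice of GAGGAA. Sequence sharing was measured as 50-base stretches on either strand in GENCODE M21 transcripts, and promoter sequences are RefSeq's. Python 3.11.15 with matplotlib 3.10.9 drew the figures.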

Additional observations from a re-analysis of the deposited data

How the results depend on the processing

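Of the 10 genes, 7 were called higher with TMM, DESeq2, the replicate block, lane as a covariate and lane 7 alone, 8 with no filter (the further gene was Rnaseh1, at 0.35), 5 at an adjusted p under 0.01, and 5 to 7 with a library left out. The number was 4 with the stricter filter (5 CPM in 5 libraries), 3 with upper-quartile scaling, and 0 in lane 8 alone, with library totals, with low-background scaling, and after background subtraction (6 of the 10 genes tested). Among all tested genes, 4418 of 19263 were higher with TMM, 5821 of 48620 with no filter and 2057 of 12005 with the stricter filter. With upper-quartile, library-total and low-background scaling 1685, 759 and 319 of 19263 were higher. In lane 8 alone 67 of 20424 were, and after subtraction 34 of 4712. Of the 10 genes, the number called lower was 0 except for 1 (Rnaseh2b) with library totals and with low-background scaling. In those fits 7888 and 8586 of all 19263 tested genes were called lower. Signs turned for Rnaseh1 (-0.023), Rnaseh2a (-0.15), Pspc1 (-0.073), Npm1 (-0.012) and Xrn1 (-0.028) with low-background scaling, for Pspc1 (-0.060), Npm1 (-0.011) and Stab1 (-0.0084) with background subtracted, for Rnaseh2a with upper-quartile scaling (-0.051), library totals (-0.11) and the stricter filter (-0.024), for Pspc1 with library totals (-0.034), and for Rnaseh2b in lane 8 alone (0.082). Each scaling shifts all genes by 1 amount, and the median of all tested genes was -0.10 with TMM, -0.24, -0.30 and -0.34 with upper quartile, totals and low-background scaling. The order of levels per kilobase changed under none of the alternatives run (library totals, each library left out, background reads subtracted). Subtraction took the same amount per kilobase from every gene of a library, so it could not change the order. Exon length, on which the order depends, was not varied. Same-numbered libraries of the 2 groups correlated at -0.14, -0.29, 0.03, 0.19 and 0.20 in their deviations from the group means (12004 genes). These mixed values do not settle whether the numbers pair the samples. With the replicate block 7 genes were called higher and 0 lower. Rnaseh1, Rnaseh2a and Rnaseh2b had the fewest reads of the 10 genes (56 to 104 for Rnaseh1) and the widest intervals.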

Other observations

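No library passed a gap screen in 32 groups of 5 values (CPM of the 10 genes and of 3222401L13Rik, and the 5 ratios, each in both groups). The screen divides the gap between the extreme library and its neighbour by the range. Its cut was 0.71, by which chance picks about 5% of groups. Stab1 in control replicate 2 (916 CPM, the next control library 1068 CPM) fell just short of it. Control replicate 2 was the lowest of all libraries in CPM for Rnaseh1, Nono, Pspc1, Npm1, Xrn2 and Stab1. It was the highest for Rnaseh2b, and it had the lowest total and the highest olfactory receptor density. The genes whose log2 CPM, after subtraction of group means, ran most like those of the 10 over the 10 libraries were, among 6793 genes of at least 20 CPM, Cyba and Mdm2 for Stab1 (Pearson r = 0.992 and 0.985), Dnaja2 and Tpm4 for Xrn2 (0.987 and 0.971), and Esyt1 and Tmem234 for Nono (0.973 and 0.949). They were Taf1 and Slc25a44 for Npm1 (0.974 and 0.969), Bcl2 and Baz1b for Pspc1 (0.956 and 0.940), Slc41a2 and Abcb4 for Xrn1 (0.953 and 0.946) and Wrb and Vti1a for Rnaseh2c (0.922 and 0.837). These are descriptions of 10 libraries that share depth and background differences, picked as the highest of many. Rnaseh1, Rnaseh2a and Rnaseh2b averaged under 20 CPM and were not searched.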
